A study of Rattus norvegicus with 9 samples.

Results

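The tachykinin and cholecystokinin systems are described here through 7 genes: the peptide precursor genes Tac1, Tac3 and Cck, and the receptor genes Tacr1, Tacr3, Cckar and Cckbr. They were taken as the array probes whose gene name is one of these symbols, 7 of 34912 gene names on the array, which gave 8 of the 45598 probes, 2 for Cckbr and 1 for each other gene. The rats were female SHR, the spontaneously hypertensive strain, and all were ovariectomised when 4 weeks old. They were left 1 week to recover, and then for 4 weeks 4 of them carried an Alzet minipump with PEG alone (OV) and 5 a pump that released 2 µg of estradiol a day in PEG (OV+E2). Amygdala from both sides of each rat was taken at 9 weeks of age and its RNA was labelled with Cy3 for 1 array, so each value below is 1 rat. The design holds no rats with ovaries, so the comparison is of estradiol given back against its absence.

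Tachykinins are small peptides released by neurons. Tac1 encodes substance P and neurokinin A and Tac3 encodes neurokinin B, which act through receptors that include NK1 (Tacr1, preferred by substance P) and NK3 (Tacr3, preferred by neurokinin B). Cholecystokinin, encoded by Cck, is one of the most abundant peptides of the forebrain and acts there mainly on the CCK2 receptor (Cckbr), while the CCK1 receptor (Cckar) is best known from the gut. All 4 receptors couple to Gq proteins, and in the amygdala both systems are studied in fear, anxiety and stress. In the hypothalamus, neurokinin B neurons carry the oestrogen receptor and are known to respond to estradiol.

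The level of a probe is given as log2 of its signal over the 75th percentile of its array, so a value of 0 is that percentile, and levels are compared between rats but not between probes. The 75th percentile was 556.8 to 737.6 signal units on 8 arrays and 129.7 on OV replicate 3, which also had the lowest mean correlation with the other arrays (0.932 against 0.981 to 0.984). The scanner values of OV replicate 3 correlated at 0.939 with its column in the authors' value table, against 1 for the other 8 arrays. Member differences between the groups are therefore given with and without OV replicate 3. The arrays sat on 2 slides, with 3 OV rats (replicates 1 to 3) and 2 OV+E2 rats (replicates 1 and 2) on slide 1, while slide 2 held the remaining OV rat (replicate 5) and 3 OV+E2 rats (replicates 3 to 5). All 8 neuronal markers examined, Snap25 and Gad1 among them, were well above background on all 9 arrays. Of 8 amygdala markers 6 were bright enough to test, including Tfap2d and Meis2. Otp was above background on 0 arrays, and each of the 3 Rspo2 probes on at most 3 arrays. Markers of the neighbouring striatum (7 of 8), hypothalamus (7 of 8) and thalamus (5 of 5) were bright enough to test too.

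Estradiol was set against vehicle with limma across all probes, with p-values adjusted by Benjamini-Hochberg and called under 0.05. None of the member probes tested was called, 0 of 7, as were 0% of the 30175 probes tested. At an unadjusted p under 0.05 there were 0 of 7 member probes, against 10.4% of all probes, and without OV replicate 3 again 0 of 7, against 14.1%. In the authors' own processed values 0 of 7 were called, against 0.234% of probes. With limma's array weights 0 of 7 were called, against 3501 of 30175 probes. The ranges of the 2 groups overlapped for all 7, while 6.9% of all probes had ranges that did not overlap. The median difference of the members was 0.042 on the log2 scale beside 0.0013 over all probes, with 5 higher and 2 lower in OV+E2. For 6 of the 7 the size of the difference was below 0.198, the median size over all tested probes. The eighth member probe, that of Cckar, was too dim to test.

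**Figure D1:**
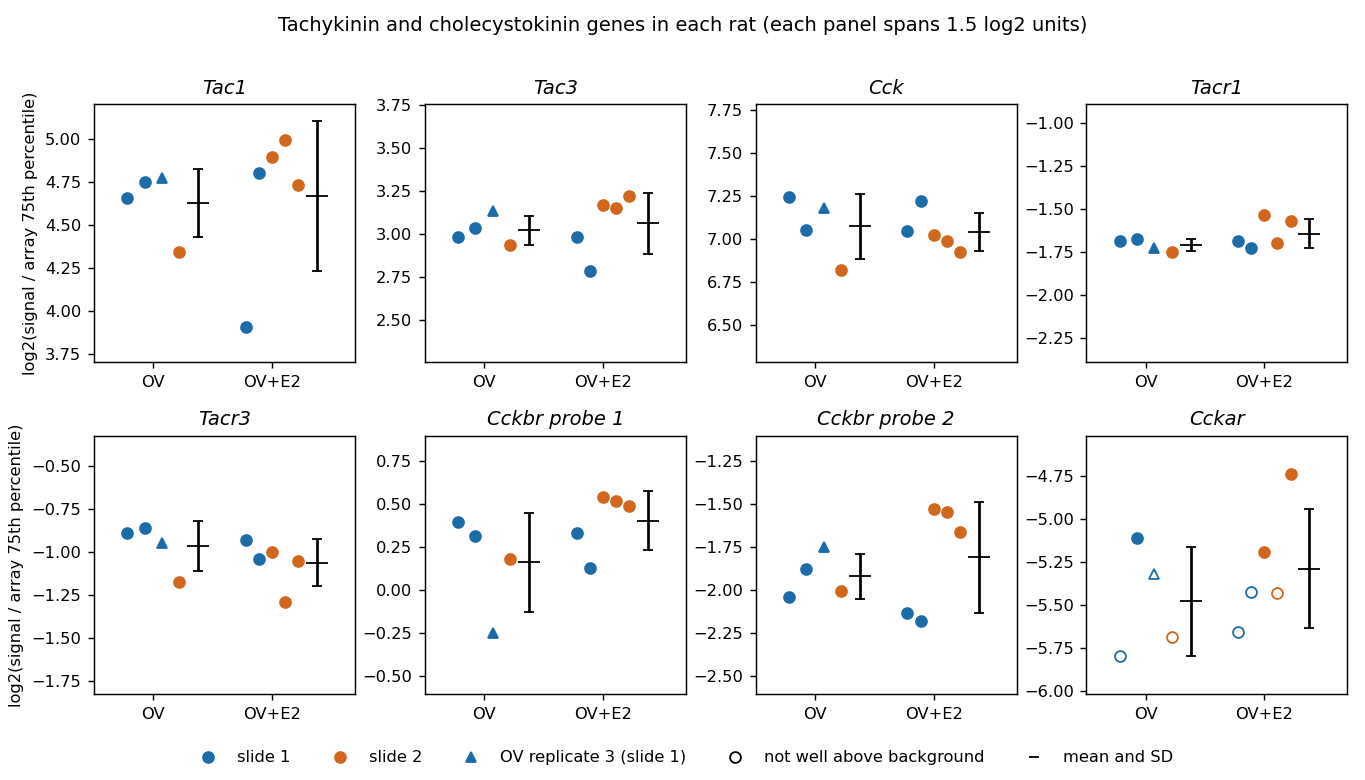
Level of each member probe in each rat, as log2 of the signal over the 75th percentile of the array, by group; colours mark the slides, the triangle is OV replicate 3, open symbols are not well above background, and the bars beside the points are the mean and SD. The 2 groups overlap in every panel, and OV+E2 replicate 1 sits apart in the Tac1 panel at 3.91.

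The plot of each member by rat shows these levels. Tac1, the substance P precursor, stood at 4.66, 4.75, 4.77 and 4.34 in OV replicates 1, 2, 3 and 5. In OV+E2 replicates 1 to 5 it stood at 3.91, 4.81, 4.90, 5.00 and 4.73. A single OV+E2 rat was thus below every other rat, and 3 OV+E2 rats were above every OV rat. The mean was 4.63 (SD 0.20, n = 4) in OV and 4.67 (SD 0.44, n = 5) in OV+E2. The difference of 0.04 (SE 0.22; limma adjusted p = 0.937) had a 95% interval from a 0.727-fold to a 1.45-fold level. Without OV+E2 replicate 1 the OV+E2 mean was 4.86 (SD 0.11, n = 4) and the difference 0.23 (SE 0.13; limma adjusted p = 0.645), and without OV replicate 3 it was 0.09 (SE 0.24; limma adjusted p = 0.906). The 2 spots of the Tac1 probe on an array differed by 0.0044 to 0.13, less than the 0.82 between OV+E2 replicate 1 and the next OV+E2 rat.

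The rat low in Tac1 was also low in markers of the striatum, a region beside the amygdala where Tac1 is strongly expressed in projection neurons. All 7 striatal markers tested had their lowest level of the 9 arrays in OV+E2 replicate 1. Drd1, the dopamine D1 receptor gene, was there 0.83 below its mean over the arrays (a deviation of −0.83), Rgs9 was at −1.17 and Ppp1r1b, which encodes DARPP-32, at −0.53. The mean deviation of the 7 markers ranged from −0.26 to 0.56 in OV and from −0.86 to 0.23 in OV+E2. OV replicate 3 was highest in 5 of the 7, although its Tac1 level of 4.77 was close to the other OV rats on its slide. In bulk tissue fewer cells of a type and less RNA per cell cannot be told apart, and the part of dissection in the Tac1 level was not tested. OV+E2 replicate 1, together with OV+E2 replicate 2, also stood above the other 7 rats in 4 of 5 thalamic markers, among them Prkcd (0.98 and 2.15 above its mean), which is also on the amygdala list, Lef1 (0.34 and 1.34) and Tcf7l2 (0.38 and 1.13). Slc17a6 (0.34 and 0.59) was another of them and is also among the 8 neuronal markers.

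Tac3, the neurokinin B precursor, stood at 2.98, 3.04, 3.13 and 2.94 in OV replicates 1, 2, 3 and 5. In OV+E2 replicates 1 to 5 it stood at 2.98, 2.79, 3.17, 3.15 and 3.22. The 3 OV+E2 rats of slide 2 were above every OV rat, and the 2 of slide 1 were not. The difference was 0.04 (SE 0.11, n = 4 and 5; limma adjusted p = 0.852), with a 95% interval from 0.864-fold to 1.23-fold, and 0.08 without OV replicate 3. Hypothalamic markers, which mark a region where Tac3 neurons are known, were lower in OV+E2 for 7 of 7 genes (6 of 7 after median scaling, after quantile normalization and without OV replicate 3). Of the 7, 0 were called and 3 had an unadjusted p under 0.05, against 10.4% of all probes. Avp (vasopressin) was at −1.08 (SE 0.24; limma adjusted p = 0.251), and at −0.97 without OV replicate 3. OV replicate 3 was the highest of the 9 arrays in 5 of the 7 markers. The mean deviation of the 7 markers was −0.10 to 0.50 in OV and −0.43 to 0.17 in OV+E2.

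Cck, the cholecystokinin precursor, was measured by 10 spots per array, whose SD within an array was 0.034 to 0.064. It stood at 7.25, 7.05, 7.18 and 6.82 in OV replicates 1, 2, 3 and 5. In OV+E2 replicates 1 to 5 it stood at 7.04, 7.22, 7.02, 6.99 and 6.92. The groups overlapped, and OV replicate 5 was the lowest of all. The means were 7.07 (SD 0.19, n = 4) and 7.04 (SD 0.11, n = 5). The difference of −0.03 (SE 0.11; limma adjusted p = 0.881) had an interval from 0.817-fold to 1.17-fold and was 0.00061 without OV replicate 3. Every array of slide 1 was above every array of slide 2 in Cck, as was the case, in either direction, for 6.3% of all probes. With group in the fit slide 2 was 0.23 lower than slide 1 for Cck, a difference of −0.23 (SE 0.10; limma adjusted p = 0.902).

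Among the tachykinin receptors, Tacr1 (NK1) was between −1.75 and −1.68 in the 4 OV rats and at −1.69, −1.73, −1.54, −1.70 and −1.57 in OV+E2 replicates 1 to 5. Its SD within groups was 0.068, and 1.93% of tested probes had a smaller one (10.74% without OV replicate 3). The difference was 0.07 (SE 0.08; limma adjusted p = 0.677), with an interval from 0.920-fold to 1.19-fold, and 0.059 without OV replicate 3. Tacr3 (NK3) stood at −0.89, −0.86, −0.95 and −1.18 in OV replicates 1, 2, 3 and 5. In OV+E2 replicates 1 to 5 it stood at −0.93, −1.04, −1, −1.29 and −1.05. OV replicate 5 and OV+E2 replicate 4 were the lowest, 1 from each group and both on slide 2. The difference was −0.09 (SE 0.11; limma adjusted p = 0.651), with an interval from 0.789-fold to 1.11-fold, and −0.088 without OV replicate 3.

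Cckbr, the main cholecystokinin receptor gene of brain, was measured by 2 probes whose starts lie 1017 bases apart, at chr1:163166890-163166949 (probe 1) and chr1:163165873-163165932 (probe 2) of rat build rn4. Probe 1 was at 0.40, 0.32, −0.25 and 0.18 in OV replicates 1, 2, 3 and 5. In OV+E2 replicates 1 to 5 it was at 0.34, 0.13, 0.55, 0.52 and 0.49. OV replicate 3 was the lowest of all by a wide margin on this probe in the scanner values. The difference was 0.24 (SE 0.15; limma adjusted p = 0.521), the largest of the members, and 0.10 without OV replicate 3 (SE 0.11; limma adjusted p = 0.717). In the authors' values OV replicate 3 was not the lowest. Its intensity there was 795.7, above OV replicate 5 (746.3) and OV+E2 replicate 2 (720.2), and the log2 difference between the groups was 0.11. All 8 neuronal markers were higher in OV+E2, with a median of 0.28 (6 of 8 and 0.13 without OV replicate 3), and 0 of them were called. On that array 7 of the 8 neuronal markers were also at their lowest of the 9 arrays, with Syt1 at −1.69 and Snap25 at −1.29 from their means, and the part of that array's quality in the difference was not tested. Probe 2 was at −2.04, −1.88, −1.75 and −2.01 in the OV rats, so OV replicate 3 was the highest of them here. In OV+E2 replicates 1 to 5 it was at −2.13, −2.18, −1.52, −1.54 and −1.66, that is, the 2 rats of slide 1 were the lowest of all and the 3 of slide 2 the highest. Its difference was 0.11 (SE 0.17; limma adjusted p = 0.731), and 0.17 without OV replicate 3. The interval ran from 0.931-fold to 1.5-fold for probe 1 and from 0.830-fold to 1.40-fold for probe 2. The values of the 2 probes correlated at 0.345 over 9 arrays and at 0.847 over the 8 without OV replicate 3.

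Cckar, the other cholecystokinin receptor gene, stood clearly out of the background in 1 of 4 OV rats (replicate 2) and 2 of 5 OV+E2 rats (replicates 3 and 5). Its signal was 3.25 to 16.1 units in OV and 13.5 to 27.7 in OV+E2, the lowest being on the dim array OV replicate 3, so no difference was measurable. The 60-base probes of Cckar (chr14:62057799-62057858, rn4) and of Cckbr probe 2 are shown because the first defines what was looked for and was above background in 3 of 9 rats, and the second what part of Cckbr gave the wider split between slides. The position of the probes within their transcripts was not analysed here.
Cckar: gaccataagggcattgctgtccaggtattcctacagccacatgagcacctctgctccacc
Cckbr probe 2: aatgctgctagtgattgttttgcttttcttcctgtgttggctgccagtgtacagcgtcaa

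**Figure D2:**
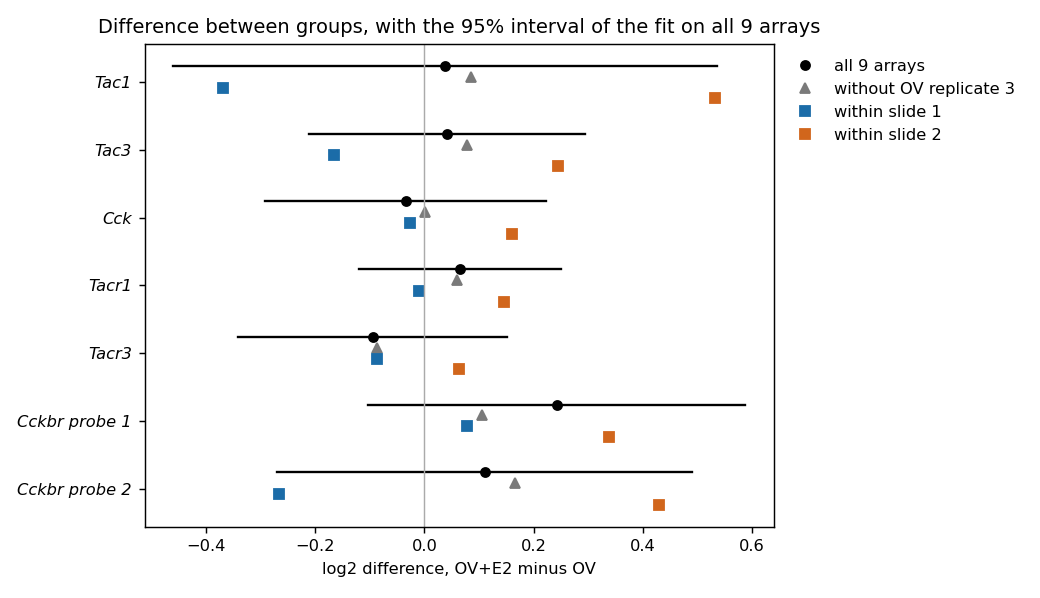
Log2 difference between OV+E2 and OV for the 7 member probes tested, with all 9 arrays (black, with the 95% interval), without OV replicate 3 (grey) and within each slide (blue and orange squares). The intervals all include 0, and for 6 of 7 probes the slide 1 difference lies below 0 and the slide 2 difference above it.

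The plot of differences also gives the values within each slide. For 6 of 7 probes OV+E2 was lower within slide 1 and higher within slide 2, against 22.6% of all probes, and 40.2% of all probes had opposite signs in either order. Tac1 was at −0.37 within slide 1 and 0.53 within slide 2, Tac3 at −0.16 and 0.24, and Cckbr probe 2 at −0.27 and 0.43. The others were closer to 0 within slide 1, with Tacr1 at −0.0099 and 0.15, Cck at −0.03 and 0.16, and Tacr3 at −0.09 and 0.06. Cckbr probe 1 was higher on both slides, at 0.08 and 0.34. All these slide 1 values include OV replicate 3, which was at −0.25 on Cckbr probe 1. On that probe OV replicates 1 and 2 were at 0.40 and 0.32, and OV+E2 replicates 1 and 2 at 0.34 and 0.13. Its slide 1 difference is thus below 0 when OV replicate 3 is left out. Each value within slide 2 rests on 1 OV rat, replicate 5, and without OV+E2 replicate 1 the slide 1 value of Tac1 was 0.08. The difference between the slides was itself tested as an interaction, which was chosen after the data were seen. It was not called for any member, as for 0% of all probes. At an unadjusted p under 0.05 there was 1 of 7, Cckbr probe 2 (0.70, SE 0.21; limma adjusted p = 0.927), against 3.65% of all probes. Without OV replicate 3 there were 3 of 7, Tac3 and both Cckbr probes, against 9.02%, and 0 of 7 called, against 0.215%. The limma adjusted p was then 0.193 for Cckbr probe 2, 0.370 for probe 1 and 0.514 for Tac3.

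Slide alone, with group in the fit, had an unadjusted p under 0.05 for 1 of 7 members, Cck, against 5.5% of all probes. Without OV replicate 3 there were 2 of 7, Cck and Cckbr probe 2, against 16.2%, and 0 of 7 called, against 0.58%. With slide as a block the estradiol differences of the 7 lay between −0.03 (Tacr3) and 0.18 (Cckbr probe 1), and 0 of 7 were called.

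**Figure D3:**
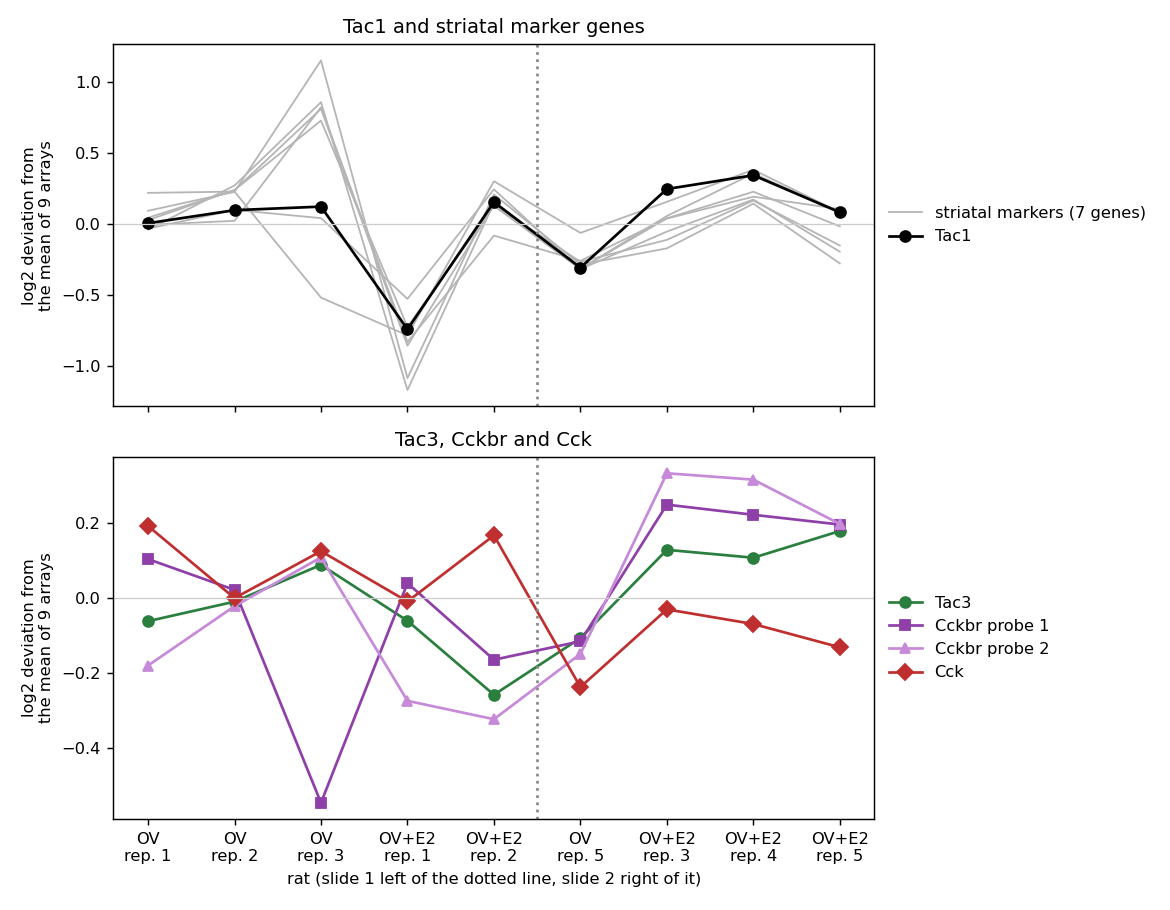
Deviation of each rat from the mean of the 9 arrays, in log2 units, for Tac1 with the 7 striatal markers tested (top) and for Tac3, both Cckbr probes and Cck (bottom), with slide 1 left and slide 2 right of the dotted line. Tac1 and all 7 striatal markers dip in OV+E2 replicate 1, and Tac3 and both Cckbr probes are high in OV+E2 replicates 3, 4 and 5.

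The plot of deviations by rat shows which members moved together. Tac3 and Cckbr probe 2 correlated at 0.902 over 9 arrays and 0.901 over the 8 without OV replicate 3, and Tac3 and Cckbr probe 1 at 0.319 and 0.921. Cck ran apart from them, at −0.335 with Tac3 over 9 arrays. These arrays share slides and scaling, and the correlations are given as a description. Of the 8 neuronal markers 7 were also above their means in each of OV+E2 replicates 3, 4 and 5, with Syt1 (synaptotagmin) at 0.41, 0.29 and 0.38 and Slc17a7, the vesicular glutamate transporter gene VGLUT1, at 0.28, 0.20 and 0.19. The exception was Slc17a6 (VGLUT2), at −0.16, −0.05 and −0.05. The mean deviation of the 8 markers was 0.135, 0.115 and 0.136 in these 3 rats. In OV+E2 replicates 1 and 2, where Cckbr probe 2 was lowest of all, the mean deviation was 0.096 and 0.135. These 2 means include Slc17a6 at 0.34 and 0.59, a gene that is also on the thalamic list. OV replicate 3, at −0.604, lowers the means from which these deviations are taken. Slc17a7 had the smallest p of the 8 markers (0.30 higher in OV+E2, SE 0.09; limma adjusted p = 0.326). The part of neuronal content in the levels of Tac3 and Cckbr was not tested.

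For each member the 3 named genes of most similar profile were found by the lower of 2 Pearson correlations, over 9 arrays and over the 8 without OV replicate 3. They are the highest of 14860 genes, so high values come from the search itself. For Tac1 they were Gpr52 (0.958), an orphan receptor gene of striatum, Ppp1r1b (0.952) and Nudt8 (0.946). Gpr52 was at 0.95 in OV+E2 replicate 1 and at 1.05 to 1.47 in the other rats. For Tac3 they were Or9k2 (0.949), Barx2 and Sh3bp1, and for Tacr1 Pgm2 (0.943), Cox15 and Nek2. For Tacr3 they were Hey2 (0.946), Tppp3 and Ptdss2. For Cck they were Paip1, Rpl7a and Uqcrb, at 0.964 to 0.965, of which Rpl7a encodes a ribosomal protein and Uqcrb a subunit of respiratory complex III. For Cckbr probe 1 they were Usp21 (0.970), Cacng3, a regulator of AMPA receptors, and the relaxin gene Rln1.

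Other genes of the 2 systems were read from fixed lists, in which 0 genes were called over all 9 arrays. The remaining family genes Tacr2 (NK2 receptor) and Tac4 (hemokinin) were lower in OV+E2 by log2 differences of −0.26 (SE 0.20; limma adjusted p = 0.544) and −0.36 (SE 0.34; limma adjusted p = 0.587). For Tac4 the value of OV replicate 5, −2.31, stood above the −4.25 to −3.48 of all other rats. Its difference was −0.07 within slide 1 and −1.48 within slide 2, where that rat is the only OV rat. Genes that cut, amidate, sulfate and store peptides were higher in OV+E2 for 11 of 12, with a median of 0.25, 1 higher and 1 lower at an unadjusted p under 0.05. Without OV replicate 3 this was 9 of 12 with a median of 0.07, and 8 of the 12 had their lowest level of the 9 arrays on that array, as had 7 of the 8 neuronal markers given above. Scg2, the secretogranin II gene, was at 0.28 (SE 0.10; limma adjusted p = 0.402), Scg3 at −0.34 (SE 0.13; limma adjusted p = 0.438), and Tpst1, an enzyme that sulfates tyrosine as in cholecystokinin, at 0.32 (0.04 without OV replicate 3).

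**Figure D4:**
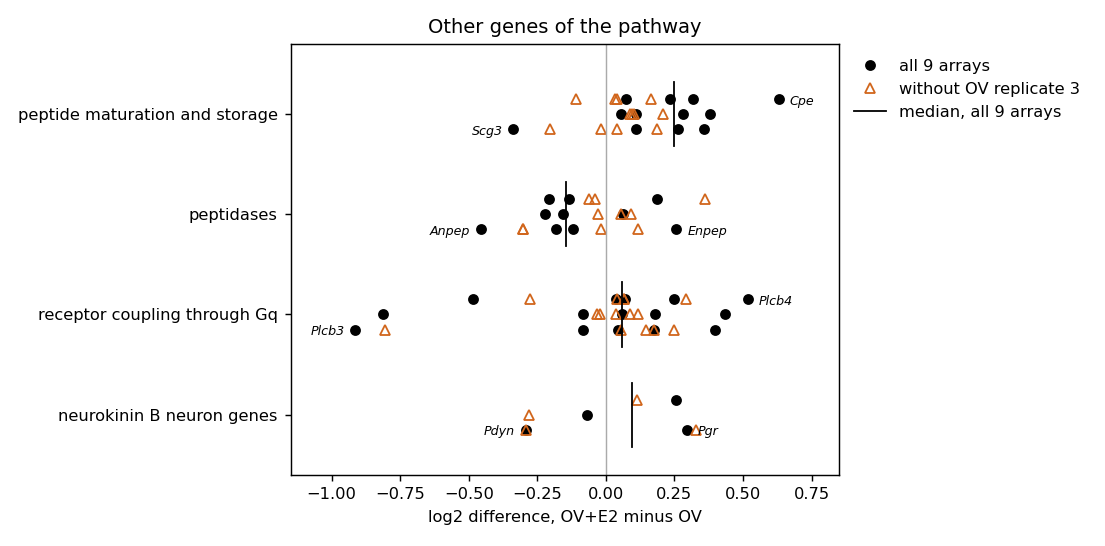
Log2 difference between OV+E2 and OV for the tested genes of 4 lists, with all 9 arrays (black points, the vertical line being their median) and without OV replicate 3 (open triangles). The median of the peptide maturation genes moves from 0.25 to 0.07 without OV replicate 3, though not every gene moves towards 0, while Plcb3 stays low, from −0.91 to −0.81.

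Of 10 peptidases that degrade such peptides 3 were higher and 7 lower (median −0.15; −0.02 without OV replicate 3), 0 at an unadjusted p under 0.05, against 10.4% of all probes. Anpep, aminopeptidase N, was at −0.46 (SE 0.24; −0.30 without OV replicate 3), Enpep, aminopeptidase A, at 0.26 (SE 0.14; 0.12) and Mme, the neprilysin gene that cleaves substance P, at −0.12 (SE 0.24; −0.30). Of 15 genes of Gq coupling 10 were higher and 5 lower (median 0.06). At an unadjusted p under 0.05 there were 1 higher and 2 lower, against 10.4% of all probes. Plcb3, a phospholipase C activated by Gq, had the smallest p of all list genes but Avp, at −0.91 (SE 0.22; limma adjusted p = 0.251; −0.49 within slide 1, −1.40 within slide 2). Gna11, a Gq family subunit, was at 0.40 (SE 0.15; limma adjusted p = 0.427), and Grk2, a kinase that desensitises receptors, at −0.49 (SE 0.19; limma adjusted p = 0.421). Without OV replicate 3 they were at 0.25 and −0.28. Genes known from neurokinin B neurons split, with Pdyn (dynorphin) at −0.29 (SE 0.14; limma adjusted p = 0.504), Kiss1r at 0.26 (SE 0.14), Pgr at 0.29 and Esr1 at −0.07 (median 0.09). Without OV replicate 3 Pdyn was at −0.29, Kiss1r at 0.11, Pgr at 0.33 and Esr1 at −0.28, and the median turned to −0.08. Kiss1 was well above background on 2 of 9 arrays and was not tested. Of 6 markers of cholecystokinin interneurons 4 were higher (median 0.23; 0.0012 without OV replicate 3), with Vip at 0.36 (SE 0.13; limma adjusted p = 0.380) and Npas1 at −0.58 (SE 0.27; limma adjusted p = 0.495), which without OV replicate 3 were at 0.29 and −0.25.

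Because the treatment acts through oestrogen receptors, the 250 bases before the start of each member were searched for the oestrogen response element. RefSeq promoter sequences (build GRCr8) were matched for 4 of 7 members, Tac1, Tacr1, Tacr3 and Cckbr. The palindrome, GGTCA and TGACC with 3 bases between them, was in 0 of 4, and in 0.0239% of 33469 promoters. Its first arm GGTCA alone, searched on both strands and contained in the palindrome, was in 1 of 4, Tacr1, and in 35.4% of all promoters. The match lies 195 bases before the Tacr1 start and is shown in capitals within chr4:116478404-116478444 (GRCr8, plus strand). A match of letters is a description, not a binding site.
Tacr1: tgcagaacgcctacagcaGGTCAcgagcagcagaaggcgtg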

How the data were processed

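The deposited scanner files hold 1-colour Cy3 intensity values, made by Agilent Feature Extraction 10.7.3.1 per the file headers (9.1 per the submitters' processing notes), with the background already subtracted. Of the 62976 spots on an array, 4259 controls and any outlier-marked spots were dropped, log2 signals of the same probe were averaged, and the 75th percentile of the array was subtracted. Testing needed a signal well above background in at least 4 of the 9 rats (30175 probes with complete values). The group comparison used limma 3.58.1 under R 4.3.3 (lmFit and eBayes, group as the only term, Benjamini-Hochberg over all probes). The fit was tested on simulated data. The authors' value table (intensity, scaled by the authors in a way not given in the sources used here) served as an alternative. Its column for OV replicate 3 correlated at 0.939 with the scanner file, against 1 for the other 8 arrays, so whether the authors used this same scan of that rat is not known. Other alternatives were other scalings, background corrections and filters, slide and replicate number as blocks, each slide alone, array weights, and leaving out each array. Slides were read from the file headers. Probe coordinates are those of rn4 per the file headers. Symbols came from the files, updated through RefSeq accessions (21184 probes) or symbols (9060).

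The members and lists were chosen with earlier results of these data known. Named were all members, 3 genes of most similar profile for each gene by its brightest tested probe, and the gene of smallest p in each direction of each pathway list. All markers of cells or regions named with values, and Tpst1, Mme, Grk2, Esr1 and Pgr, were chosen after their values were seen. The number of arrays limits the precision.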

Additional observations from a re-analysis of the deposited data

Results flagged for a closer look

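Of 16 sets of values, the 8 member probes in 2 groups, 1 held a rat far from the others. Tac1 in OV+E2 replicate 1 was at 3.91, with the other 4 OV+E2 rats at 4.73 to 5.00, and the gap to the nearest rat was 0.759 of the whole range of the group. Chance alone marks about 1 set in 20 in this way.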

How the results depend on the processing

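In every alternative run 0 of 7 member probes were called. Over all probes the count of calls was 0 in the planned fit, 9 without the filter on dim probes, 70 in the authors' values, 3501 with array weights and 1125 within slide 2, where the single OV rat was assumed to vary like the others. It was 1 with slide as a block and OV replicate 3 left out, an alternative chosen after the data were seen, and 0 to 1 with single arrays left out. The small differences of several members changed sign. With slide as a block Tac1 was at −0.022, Tac3 at −0.0071 and Cck at 0.045 (0.059 also without OV replicate 3). Within slide 1 Tac1 was at −0.37, Tac3 at −0.16, Tacr1 at −0.0099 and Cckbr probe 2 at −0.27, and within slide 2 Tacr3 was at 0.063 and Cck at 0.16. Median scaling, which moved the median of all probes to 0.11, put Tacr3 at 0.011 and Cck at 0.071, and quantile normalization put Cck at 0.21. Leaving out the filter on dim probes moved that median to −0.13. Normexp, which moved it to −0.12, put Tacr1 at −0.061, Cckbr probe 2 at −0.019 and Cck at 0.073, and the authors' values put Tacr1 at −0.018 and Cck at 0.043. With single arrays left out Tac1 ranged from −0.058 to 0.23 and Cck from −0.12 to 0.023. Cckbr probe 1 was higher in OV+E2 in all alternatives, at 0.07 to 0.35. The causes were not tested. For numbers 1, 2, 3 and 5, same-numbered rats correlated at 0.17, −0.0761, −0.011 and 0.105 in their deviations from the group means. The best correlation with a rat of another number was 0.102, 0.0647, 0.122 and 0.0926. The same number was thus the best match for numbers 1 and 5 only. Whether replicate numbers pair the rats was not tested further. With replicate number as a block (replicate block) OV+E2 replicate 4, whose number no OV rat has, was left out. Tac1 was then at −0.044, no other member changed sign, and 0 probes were called. With OV+E2 replicate 4 left out and no block, Tac1 was at −0.044 too. Cckar is limited by its signal over background.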
